A study of Homo sapiens with 2 samples.

Results

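Integrins are the receptors by which cells hold on to extracellular matrix. Subunits of this family are described here in PC-3 cells with and without knockdown of SHISA2. The 10 genes were the alpha subunits ITGA2, ITGA3, ITGA5, ITGA6 and ITGAV and the beta subunits ITGB1, ITGB3, ITGB4, ITGB5 and ITGB8, of 19775 genes that the array annotation names on a probe set of their own. Their members are all 35 probe sets listed to exactly 1 of these genes, and this rule for probe sets uses the annotation alone. The 10 genes themselves were chosen with earlier results of these data known. PC-3 is an androgen-independent human prostate cancer line from a bone metastasis. RNA from cells with the control shRNA vector, labelled siCONTROL_PC-3, was hybridised to 1 array, and RNA from cells with the vector against SHISA2, labelled siSHISA2_PC-3, to the other. Both groups are the same cell line and both received a vector, and the number of hairpins, the time of harvest and the number of cultures are not given in the sources used here. With 1 array per group no difference was tested, and no value has a replicate error.

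Each integrin is a pair of 1 alpha and 1 beta subunit, and a subunit reaches the cell surface only after pairing. ITGB1 pairs with many alpha subunits and ITGAV with several beta subunits, while ITGB4 pairs with ITGA6 alone. The pair sets the ligand: collagen for α2β1, laminin for α3β1, α6β1 and α6β4, fibronectin for α5β1, and proteins with an RGD sequence such as vitronectin and osteopontin for the αV group. Inside the cell the beta tails bind talin and kindlins, which link most integrins to actin, whereas β4 is tied to keratins through plectin in hemidesmosomes.

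The values are deposited probe-set signals in arbitrary units. Signals were raised to a floor of 47.9, the median of all signals, and a probe set counted as measured when its higher signal was above it. A log2 ratio is always knockdown over control, and it is a bound when 1 signal lay under the floor. Bright means that both signals were above 387.3, the 75th percentile, and dim that neither was. Of the 35 integrin probe sets 24 were measured, 12 were bright and 11 were dim, and the other measured one had its control signal alone above 387.3.

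SHISA2 itself read 3536 with the control vector and 1506 with the SHISA2 vector, 42.6% of the control signal. A technical yardstick was taken from how far probe sets of the same gene disagree in log2 ratio, an SD of 0.286 over measured genes and of 0.155 with the floor raised to 387.3. The epithelial keratins KRT8 and KRT18 were bright in both arrays, at 2283 and 1990 and at 18340 and 17533. KRT19 was under the floor on both of its probe sets, and KLK3 (prostate-specific antigen) was under it on 2 of 3, with 242.3 and 251.0 on the third. CTNNA1, listed here because the alpha-catenin gene is known as deleted in PC-3, was bright at 8434 and 8270, and which part of the gene the probe sets read is not given. Leukocyte PTPRC was under the floor on all of its probe sets, and the 3 measured of 8 leukocyte markers were dim with ratios of 0.26 to 0.59. The ratios of CD3E (0.26) and ITGAM (0.32) among them were bounds. Of 4 endothelial markers 3 were measured, while VWF was under the floor. ESAM was bright at 522.6 and 500.9, and CDH5 was dim at 155.9 and 261.5 (0.75). PECAM1 was dim at 104.6 and 121.7 (0.22) on 1 probe set. On 208982_at PECAM1 went the other way, at least 1.48-fold lower, from 70.8 to a signal under the floor. Of 4 fibroblast markers only COL1A1 was measured, bright at 787.2 and 577.0 (-0.45) on 1 probe set. Its dim probe sets went the other way, at 153.8 and 174.5 (0.18) and at 50.2 and 95.0 (0.92). Their part in the integrin values was not tested.

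Most integrin probe sets read lower in the knockdown array, by small amounts. Of the 24 measured, 19 had a log2 ratio below 0 (79.2%), against 46.6% of all 29305 measured probe sets. Their median was -0.21, against 0.02 for all. Probe sets with 1 signal under the floor had to differ to be measured. Where both signals were above it, 16 of 19 were below 0, against 47.8% of such probe sets. Among bright ones it was 11 of 12, against 49.7%, with a median of -0.18. Among dim ones it was 7 of 11, and only 1 of 5 without ITGB3, against 43.6% of all dim probe sets. Without ITGB3, 13 of 18 measured integrin probe sets were below 0 (72.2%). At least 1.5-fold lower were 5 of the 24, on ITGA6, ITGB3 and ITGB5, against 4.35% of all. None was at least 1.5-fold higher, against 6.67%. At least 2-fold lower were 2, both of ITGB3, against 0.628%. Probe sets of a gene share a transcript and are not independent. In RNA from a whole culture, fewer expressing cells and less RNA per cell cannot be told apart.

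**Figure D1:**
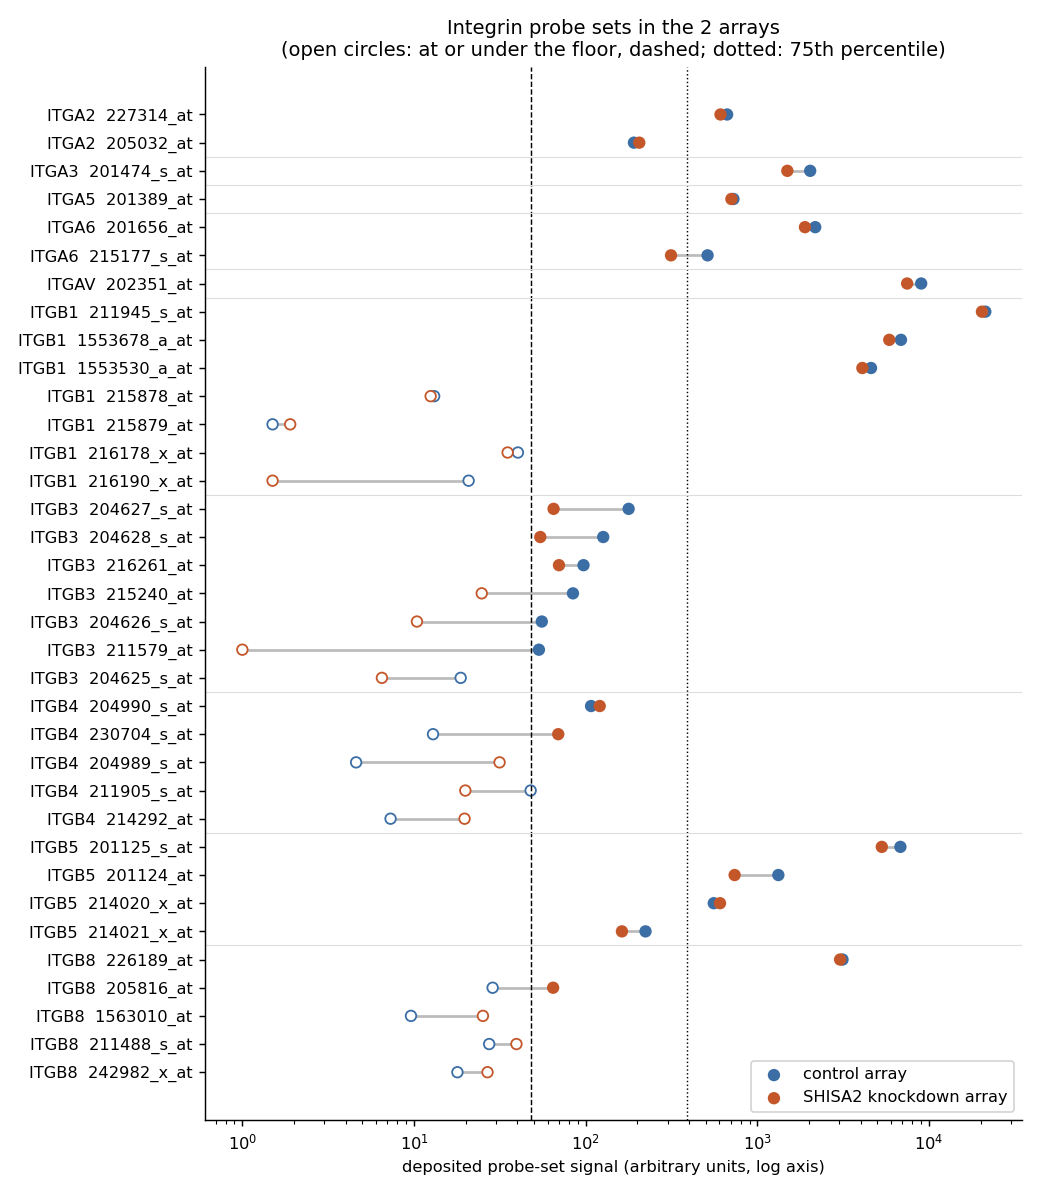
Signal of each of the 35 integrin probe sets in the control and knockdown arrays, on a log axis in arbitrary units, with the floor of 47.9 dashed and the 75th percentile of 387.3 dotted. ITGB3 lies under 387.3 throughout with the control signal higher on all 7 probe sets, while the bright subunits shift by small amounts.

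Each gene was then represented by its brightest measured probe set. On that measure 9 of the 10 subunits were below 0, against 47.8% of 12931 measured genes, with a median of -0.16 against 0.01 for all. ITGB4 was the exception. At least 1.5-fold lower was 1 of the 10, ITGB3, against 3.77% of genes. The signs of all 10 were the same after median centring, quantile normalization and removal of a loess trend.

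ITGB1 is the common beta chain and forms a receptor with each of the 5 alpha subunits described here. It read 21272 with the control vector and 20334 with the SHISA2 vector on 211945_s_at. The other bright probe sets gave 6862 and 5865 on 1553678_a_at and 4594 and 4091 on 1553530_a_at. All 3 were lower in the knockdown array, with log2 ratios of -0.07, -0.23 and -0.17. The remaining 4 probe sets of ITGB1 were under the floor in both arrays, at 1.5 to 40.3, and carry no ratio. On its brightest probe set ITGB1 stood within the bulk of bright genes, of which 36.1% had a lower ratio.

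The collagen receptor subunit ITGA2 gave no clear direction. It read 666.6 with the control vector and 609.8 with the SHISA2 vector on 227314_at, a log2 ratio of -0.13. Its dimmer probe set 205032_at went the other way, at 191.0 and 205.2, a ratio of 0.10.

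ITGA3, the alpha chain of the laminin receptor α3β1, read lower in the knockdown array on its only probe set. There, on 201474_s_at, it read 2031 with the control vector and 1495 with the SHISA2 vector, 73.6% of the control signal. The log2 ratio of -0.44 was 2.86 times the technical yardstick of 0.155, and 3.07% of the 7650 bright genes had a lower one. The ending _s_at marks a set whose probes may also match other transcripts, and the annotation gives no other for this gene.

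ITGA6 makes laminin receptors with either ITGB1 or ITGB4, and both of its probe sets were lower. The brighter, 201656_at, read 2173 with the control vector and 1893 with the SHISA2 vector, a log2 ratio of -0.20. The other, 215177_s_at, was further apart, at 512.8 and 314.1, a ratio of -0.71. The 2 probe sets thus shared a direction but differed in the size of the ratio, and which transcripts each reads is not given.

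ITGA5, the fibronectin receptor chain, read nearly alike in the 2 arrays, at 725.4 and 705.9 on its only probe set (log2 ratio -0.04). Of bright genes 41.3% had a lower ratio.

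ITGAV is the shared alpha chain of the RGD-binding group and one of the bright subunits here. Its only probe set, 202351_at, read 9002 with the control vector and 7455 with the SHISA2 vector, 82.8% of the control signal. The log2 ratio of -0.27 was 1.76 times the technical yardstick, and 9.79% of bright genes had a lower one.

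The beta partners of ITGAV did not share 1 pattern. ITGB5, the vitronectin receptor chain, read 6812 with the control vector and 5308 with the SHISA2 vector on 201125_s_at, a log2 ratio of -0.36, and 5.25% of bright genes had a lower one. Its probe set 201124_at read 1325 and 737.2, or 55.6% of control, a ratio of -0.85. The dim 214021_x_at read 223.1 and 162.6 (-0.46). Against these 3, 214020_x_at was slightly higher, at 557.3 and 606.0 (0.12). Among bright probe sets, 1.16% of all were at least 1.5-fold lower, and 201124_at was the only such one of the 12 integrin ones.

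ITGB3, the beta chain of αVβ3 and of the platelet receptor αIIbβ3, had the largest ratios and was dim on every probe set. Its brightest probe set, 204627_s_at, read 177.9 with the control vector and 65.0 with the SHISA2 vector, 36.5% of control and a log2 ratio of -1.45. On 204628_s_at it read 126.5 and 54.4 (-1.22), and on 216261_at 97.1 and 69.9 (-0.47). These 3 had both signals above the floor, and the control signal was the higher each time.

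The other 3 measured probe sets of ITGB3 give bounds only, because the knockdown signal was under the floor. The control signals were 84.3, 55.5 and 53.4 and the knockdown signals 24.8, 10.4 and 1.0, so these were at least 1.76-fold, 1.16-fold and 1.11-fold lower. The seventh, 204625_s_at, was under the floor in both arrays, at 18.7 and 6.5. Of the 3 with both signals above the floor all were below 0, against 45.3% of all such dim probe sets, and 2 were at least 2-fold lower, against 0.816%. Both 2-fold values come from _s_at probe sets. Without _s_at and _x_at probe sets the ratio of ITGB3 was -0.47, and averaged over its probe sets it was -0.72, under 2-fold in both cases. That average takes in the 3 bounds, which can only make the drop look smaller. With the floor raised to 387.3 the gene was not measured at all.

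ITGB8, the chain of the αVβ8 receptor that binds latent TGF-beta, read 3134 with the control vector and 3033 with the SHISA2 vector on 226189_at (log2 ratio -0.05). Its only other measured probe set, 205816_at, was under the floor in the control at 28.7 and read 64.6 in the knockdown array, at least 1.35-fold higher. The mean over both was 0.19, so the sign for ITGB8 depended on how its probe sets were combined. Its other 3 probe sets read at most 39.5.

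ITGB4, the hemidesmosome chain, was the only subunit above 0, and it was dim. On 204990_s_at it read 107.5 with the control vector and 120.7 with the SHISA2 vector (log2 ratio 0.17, and 0.08 after quantile normalization or loess). The ratio of 0.17 was 0.58 times the technical yardstick over measured genes, and 61.5% of dim genes had a lower one. On 230704_s_at it read 12.9 and 69.2, at least 1.44-fold higher. Its other 3 probe sets were under the floor in both arrays, at 4.6 to 47.8, and carry no ratio. Of these, 211905_s_at read lower in the knockdown array, at 47.8 and 19.9. The others read higher there, at 4.6 and 31.5 and at 7.3 and 19.7.

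**Figure D2:**
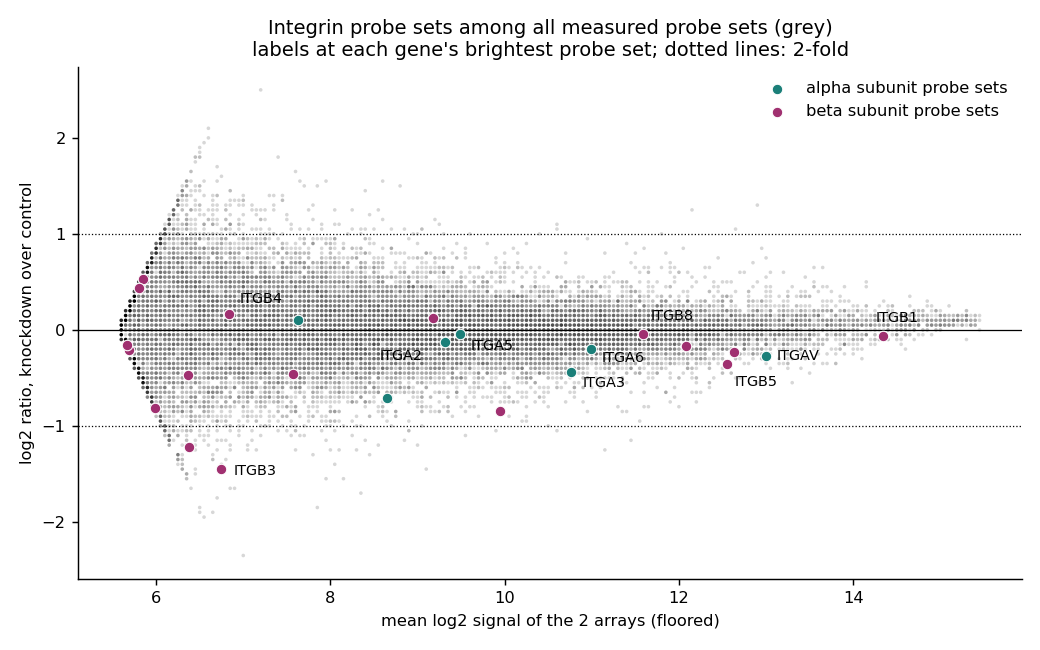
Log2 ratio of knockdown over control against mean log2 signal for the 24 measured integrin probe sets (coloured) and all 29305 measured probe sets (grey, on a grid, darker where more coincide). Of the 12 bright integrin points 11 lie below 0, and both below the lower 2-fold line belong to ITGB3.

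Known receptors were set out as 9 pairs of subunits. Levels of an alpha and a beta subunit cannot be set against each other, since probe sets respond differently, so only the ratios are compared. In 8 of the 9 pairs both subunits were below 0 on their brightest probe sets, before and after each of the 3 other scalings. On other probe sets it was less even: both were below 0 in 3 of the 6 combinations for ITGA2 with ITGB1, in 1 of 2 for ITGAV with ITGB8, where the other is a bound, and with the mean over probe sets ITGB8 was at 0.19. The count is not 9 separate facts, because ITGB1 stands in 5 pairs and ITGAV in 4.

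The β1 receptors share 1 beta value, so their gaps differ through the alpha chain alone. ITGA5 with ITGB1 differed by 0.03 on the log2 scale, ITGA2 by 0.06, ITGA6 by 0.13, ITGAV by 0.21 and ITGA3 by 0.38. All of these were bright. The last 2 gaps were larger than the bright yardstick of 0.155, but that is the yardstick of a single ratio and not of a gap. The gaps rest on the ITGB1 ratio of -0.07 on 211945_s_at. On its other bright probe sets ITGB1 was at -0.23 and -0.17, which changes the sizes and the order of the gaps. Both chains of αVβ5 were bright, with ratios of -0.27 and -0.36, a gap of 0.09, and 3 of the 4 combinations of their probe sets had both below 0. In αVβ3 the beta chain was far lower than the alpha chain on its brightest probe set, a dim _s_at one, at -1.45 against -0.27. On 216261_at, its only probe set without that ending and with both signals above the floor, ITGB3 was at -0.47. The size of this gap thus depends on the probe set. All 3 combinations without bounds had both below 0. In αVβ8 the beta chain stood near 0, at -0.05. In α6β4 the chains stood on opposite sides of 0, at -0.20 and 0.17, with a dim beta chain. The ITGB4 ratio was 0.58 times the technical yardstick over measured genes, so the direction of ITGB4 is not secure. Of the 2 combinations for α6β4 without bounds, 0 had both below 0.

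**Figure D3:**
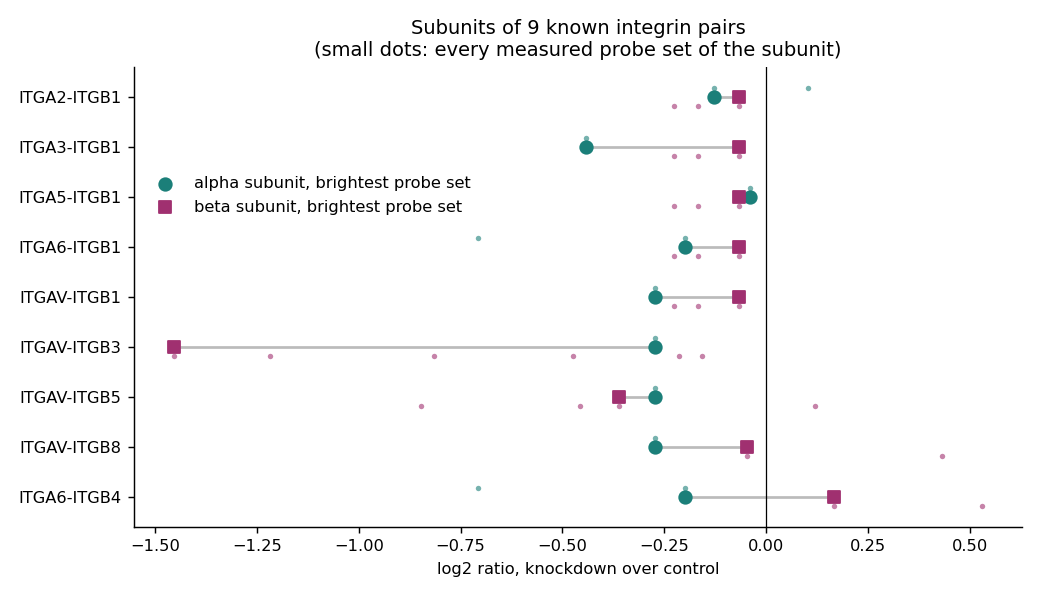
Log2 ratio of knockdown over control for the alpha (circle) and beta (square) subunit of 9 known integrin pairs on the brightest probe set, with every measured probe set as a small dot. In αVβ3 the gap between subunits is 1.18, with ITGB3 on a dim probe set, and α6β4 is the only pair on both sides of 0.

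Because ITGAV is shared by receptors whose beta chains differed, the DNA before their start sites is printed, with ITGB1 for comparison. The RefSeq promoter table for GRCh38.p14 was matched by symbol for 7 of the 10 genes, with 12 starts in all. ITGA3, ITGB3 and ITGB4 had no entry. Where a gene has several starts, the one with the most CpG dinucleotides is shown, as the 250 bases before it, 5′ to 3′. Capitals mark 4 motifs on either strand, which do not overlap in these windows: GGGCGG for the GC box, TGANTCA for AP-1, TATAAA for the TATA box and CCGGAA for ETS factors. The windows are chr2:186589806-186590055 on the plus strand, chr3:124887366-124887615 on the minus strand, chr7:20330650-20330899 on the plus strand and chr10:32958231-32958480 on the minus strand.
ITGAV: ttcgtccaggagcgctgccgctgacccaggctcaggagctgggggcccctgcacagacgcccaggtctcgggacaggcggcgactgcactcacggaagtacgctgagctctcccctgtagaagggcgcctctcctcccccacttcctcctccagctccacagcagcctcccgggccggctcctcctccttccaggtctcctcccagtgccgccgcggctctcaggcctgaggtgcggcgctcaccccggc
ITGB5: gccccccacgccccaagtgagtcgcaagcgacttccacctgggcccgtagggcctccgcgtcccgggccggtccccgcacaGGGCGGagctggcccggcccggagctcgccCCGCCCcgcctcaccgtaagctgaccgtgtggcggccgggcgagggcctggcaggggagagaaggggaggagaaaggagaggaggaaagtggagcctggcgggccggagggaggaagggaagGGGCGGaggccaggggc
ITGB8: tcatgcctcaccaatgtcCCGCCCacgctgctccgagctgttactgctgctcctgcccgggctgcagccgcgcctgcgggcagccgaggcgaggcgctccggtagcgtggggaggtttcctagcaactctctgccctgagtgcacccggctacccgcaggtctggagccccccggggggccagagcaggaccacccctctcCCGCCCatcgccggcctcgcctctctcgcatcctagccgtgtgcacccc
ITGB1: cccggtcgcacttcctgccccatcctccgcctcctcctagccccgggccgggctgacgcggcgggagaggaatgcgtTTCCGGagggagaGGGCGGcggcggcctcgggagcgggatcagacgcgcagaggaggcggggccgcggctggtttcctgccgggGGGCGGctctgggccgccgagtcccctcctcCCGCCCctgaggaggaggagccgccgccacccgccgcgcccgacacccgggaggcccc

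The windows of ITGB5 and ITGB1 held 3 GC boxes each and that of ITGB8 held 2, while ITGAV held none of the 4 motifs. Among all 35116 listed starts, 42.6% had a GC box in the same window, 6.57% an AP-1 motif, 10.7% a TATA motif and 14.5% an ETS motif. ITGB1 had 1 ETS motif, and none of the 4 windows had an AP-1 or TATA motif. The number of CpG dinucleotides, by which the starts were picked, was 18 in ITGAV, 23 in ITGB5, 21 in ITGB8 and 32 in ITGB1, and the starts left out had 1 in ITGAV, 19 and 9 in ITGB5 and 4 in ITGB1. The GC box itself holds a CpG, so windows picked by CpG are not set on a like footing against all starts. Of the starts left out, that of ITGB1 had 3 TATA motifs and no GC box. The ITGB5 start with 9 CpG had 2 GC boxes and 1 ETS motif, and the remaining ones had none of the 4 motifs. These matches describe letters, and no binding was measured.

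Of the 16 other integrin subunits, 15 had a probe set of their own and 6 were measured, 4 of them above 0, against 52.2% of all measured genes. ITGAE, which pairs with ITGB7 on lymphocytes, was the only bright one, at 2402 with the control vector and 3007 with the SHISA2 vector (log2 ratio 0.32), while ITGB7 was under the floor at 7.0 and 4.1. ITGA10, a collagen receptor chain that pairs with ITGB1, read 305.9 and 169.1, or 55.3% of control (-0.86, dim). ITGA2B, the platelet partner of ITGB3, read 56.3 and 96.3 (0.77) on 1 of 4 probe sets, close to the floor. ITGA7 was at least 1.27-fold lower, and ITGAM and ITGA1 at least 1.25-fold and 1.04-fold higher, all 3 measured through 1 array only, from signals near the floor. Subunits of leukocyte integrins, ITGB2, ITGAL and ITGAX, were under the floor in both arrays.

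The matrix ligands of these receptors were mostly lower, by more than the receptors. Of 27 ligand genes with a probe set 22 were measured and 18 of them were below 0, against 47.8% of all genes, with a median of -0.39. At least 1.5-fold lower were 9, against 3.77%, and at least 1.5-fold higher was 1, against 5.01%. By the naming rule, the 6 bright ligands with the largest ratios on their brightest probe sets were NPNT, COL4A2, EDIL3, LAMB3, COL4A1 and LAMB1.

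Ligands of the RGD-binding group had 10 of 12 measured genes below 0, against the same 47.8% of all genes. NPNT, nephronectin, best known as a ligand of α8β1, read 2215 with the control vector and 1087 with the SHISA2 vector (log2 ratio -1.03), while ITGA8 was under the floor on all of its probe sets. EDIL3, a secreted RGD protein bound by αV integrins, read 5388 and 3066 (-0.81), with -0.09 and 0.71 on its dim probe sets. FN1, fibronectin, the ligand of α5β1, was lower on 4 of 5 probe sets (-1.28 to -0.98), while its receptor chain ITGA5 stood at -0.04. SPP1, osteopontin, read 593.3 and 183.7 (-1.69). CCN1, a matrix ligand of αV and α6 integrins, was higher on both probe sets, at 23353 and 27362 on the brighter (0.23), and THBS1 read 0.14. FN1, SPP1, CCN1 and THBS1 lie outside the naming rule and were chosen after their values were seen.

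Among basement membrane chains, the type IV collagens read lower together. COL4A2 went from 4111 to 2149 (log2 ratio -0.94, and -0.91 on its dim probe set), and COL4A1 from 4180 to 2417 (-0.79, and -0.04 on its dim one). The laminin chains split. LAMB1 read 4064 and 2362 (-0.78, and -0.83 on its other probe set). LAMB3, the beta chain of laminin-332, the ligand of α3β1 and α6β4, went the other way, at 1713 and 2988 (0.80). In all, 4 of 4 measured collagen genes and 4 of 6 laminin genes were below 0 on their brightest probe sets, against 47.8% of all measured genes. These are small counts, and among the collagens COL1A1 was above 0 on its dim probe sets (0.18 and 0.92).

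Proteins that bind integrin tails and membrane partners did not lean to 1 side. Of 30 genes with a probe set 27 were measured, 12 below 0 and 15 above, while 47.8% of all measured genes were below 0. Their median was 0.04 as deposited and -0.01 after quantile normalization. Of the 3 kindlins, which bind beta tails and activate integrins, FERMT3 was under the floor and the other two differed in direction. FERMT1 (kindlin-1) read 1805 with the control vector and 2516 with the SHISA2 vector (log2 ratio 0.48) and was higher on all 3 probe sets (0.48 to 0.81). FERMT2 (kindlin-2) read 5836 and 4585 (-0.35) and was lower on all 3 (-0.53 to -0.14). All 6 of these probe sets were bright, and the signs held under each scaling.

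TNS3, the adaptor tensin-3, had the largest ratio of the bright partners on the brightest probe set, at 5781 and 3881 (-0.57). Vinculin, VCL, which ties talin to actin, read 9072 and 7340 (-0.31), with -0.02 on its dim probe set. The tail-binding pseudokinase ILK read 1034 and 846 (-0.29), and zyxin, ZYX, 683.8 and 766.0 (0.16). PTK2, focal adhesion kinase, read 5318 and 5167 (-0.04), with -0.23 on its other bright probe set and 0.45 and 0.14 on its dim ones. The tetraspanins that associate with α3β1 and α6β1 stayed close to 0, with CD151 at -0.08, CD9 at 0.11 and CD81 at 0.08. PLEC, the plectin that anchors β4, was at least 3.88-fold lower on its only measured probe set, from 185.7 to a signal under the floor, and its other was under the floor in both arrays. PTK2, the tetraspanins and PLEC were named after their values were seen.

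**Figure D4:**
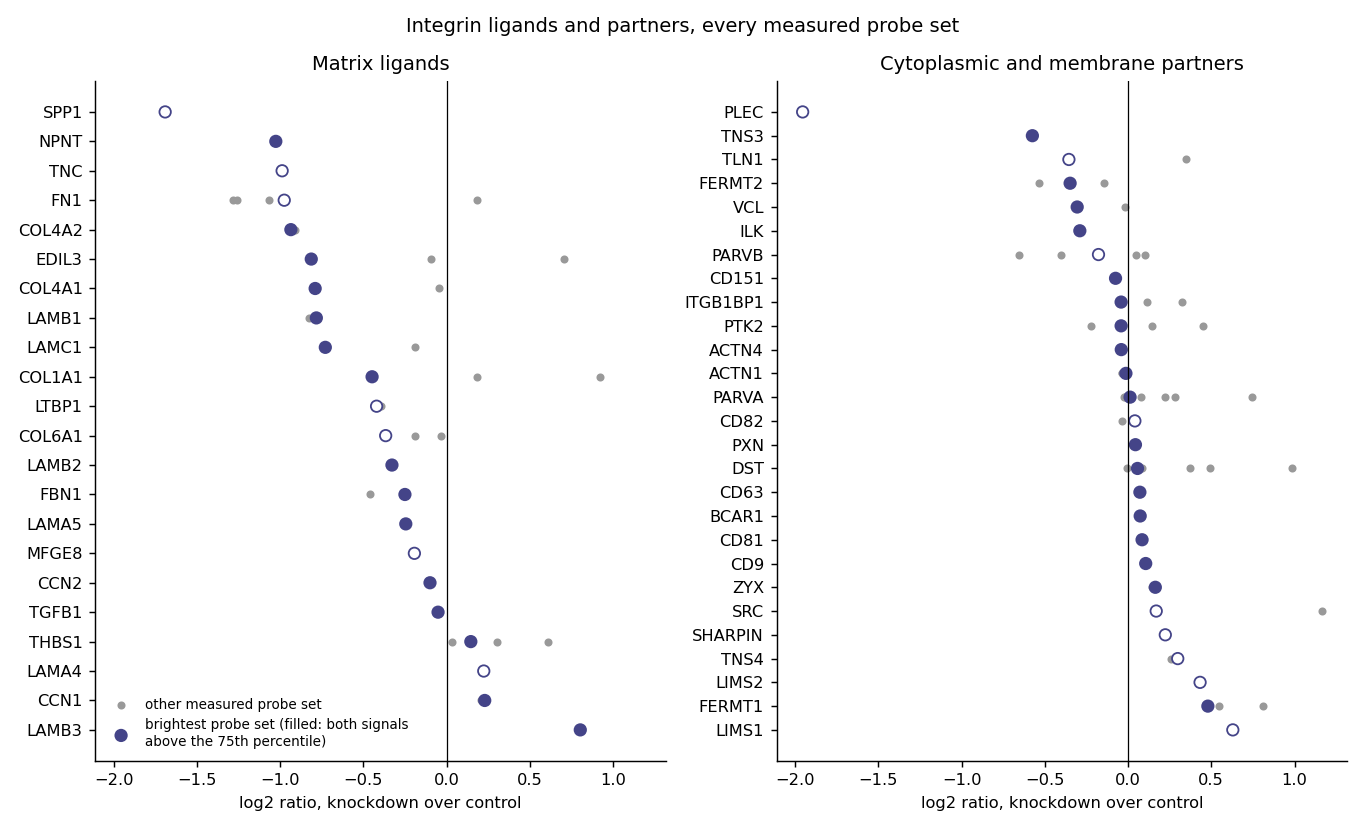
Log2 ratio of knockdown over control for integrin ligands (left) and tail-binding or membrane partners (right), ordered by the brightest probe set (large circle, filled where both signals exceeded 387.3), with other measured probe sets as grey dots. Of the ligands 18 of 22 lie below 0, and of the partners 12 of 27, against 47.8% of all measured genes.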

How the data were processed

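The authors made the deposited values with MAS5, per the submitters' processing notes: probe-set signals (intensities) on a linear scale, from biotin-labelled RNA on 1 array per group. No source used here gives the MAS5 version or a genome build. The 2% trimmed means were 500.07 in both arrays, so no further scaling was applied. Of 54675 probe sets 62 were array controls and left out, and 41097 had 1 gene symbol in the annotation table (1801 had several, and those name no gene). Signals were floored, and the measured probe set brightest on average stood for a gene. For the technical yardstick the ratios of the 2 brightest probe sets were subtracted in each of 6428 genes, and the SD of that gap was divided by the square root of 2. It holds no variation between cultures or arrays. A loess trend used span 0.3 (statsmodels 0.14.6). Analysis ran in Python 3.11.15 and was tested on simulated data. Sizes such as 1.5-fold and 2-fold are thresholds, not tests. Members, pairs and lists were chosen with earlier results of these data known. Genes named are the 10 subunits, every other measured integrin, SHISA2, and per list the 6 bright genes with the largest ratios; others are marked. With 2 arrays, the precision of every value is limited by their number.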

Additional observations from a re-analysis of the deposited data

How the results depend on the processing

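The median over the 10 subunits kept its sign and lay between -0.22 and -0.16 under 9 alternatives, over 8 measured subunits with the floor at the 75th percentile and without shared probe sets. The count of integrin probe sets below 0 was 19 of 24 as deposited, 12 of 13 with that higher floor and 11 of 13 without _x_at and _s_at probe sets, where fewer were measured. The count of subunits at least 2-fold apart was 1 (ITGB3) as deposited and 0 with the floor at the 75th percentile, without _x_at and _s_at probe sets, and with the mean or the median over probe sets. For ITGB3 the mean and the median take in bounds, which can only make the drop look smaller. Over all measured probe sets 535 were at least 2-fold apart, 7556 with the floor at the 25th percentile (11.3), 16 with it at the 75th, 2350 with no floor and a pseudocount of 1, and 3232 at 1.5-fold. Of 86 values for single subunits, 80 kept their sign and stayed within the technical SD of 0.286 of the deposited value. Further off were ITGB3 at -0.47 without shared probe sets, -0.72 as the mean and -0.64 as the median, and ITGB5 at -0.85 without shared probe sets. ITGB8, at 0.19 as the mean or median, changed sign but stayed within that SD. No paired analysis was possible because each group had 1 array. Dim probe sets, ITGB3 and ITGB4 above all, lie close to background and are the least precise.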

Other observations

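Transcripts named for integrin genes but not coding for subunits showed mixed values. ITGB1-DT, the RNA that starts opposite ITGB1, was higher, at 527.7 against 393.0 (log2 ratio 0.43), while all 3 measured probe sets of ITGB1 were below 0. ITGB8-AS1, antisense to ITGB8, read 56.1 and 63.0 (0.17), near the floor. ITGB3BP, a centromere protein that was named for binding the β3 tail, read 5560 and 5500 (-0.02). ITGB1BP1, which binds the β1 tail and holds back talin, read 3366 and 3270 (-0.04) on its brightest probe set. On 203337_x_at it was higher, at 430.5 and 466.8 (0.12), and on 228227_at at least 1.25-fold higher, from a signal under the floor. No probe set listed to several genes carried a subunit described here, but 4 carried another integrin gene and were not read. All of these were chosen after their values were seen.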
